A study of Mus musculus with 52 samples.

Results

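The kidneys of young lupus-prone hybrid mice were compared with kidneys of C57BL/6 mice of the same age. The tested animals were female NZB/W-F1 mice, bred from New Zealand Black mothers and New Zealand White fathers, killed at 1 month, an age given in the study's labels as pre-puberty and free of lupus symptoms. The controls were age-matched female C57BL/6 mice, an inbred laboratory strain. Whole perfused kidney was taken from both, no drug was given, and no gene was engineered in either strain. The libraries were those titled as total kidney of each strain at 1 month, 3 NZB/W-F1 and 3 C57BL/6, which are 6 of the 18 kidney libraries and of 52 libraries in the series. The other kidneys came from the same strains at 3 months, before autoimmunity, and at 6 months, when the NZB/W-F1 mice had nephritis. Because the hybrid carries New Zealand genomes and the control does not, every difference is between strains, and disease and strain background cannot be told apart. Nothing in the labels says whether libraries of a group came from separate litters, so p-values measure only the spread between libraries. For kidney this spread was estimated from all 18 kidney libraries together, those of later ages included.

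NZB/W-F1 mice are a classical model of human lupus. The females make antibodies to DNA and other nuclear antigens, immune complexes settle in the glomeruli, and nephritis follows. The kidney itself is made largely of tubules. The proximal tubule takes back filtered sugar, amino acids and phosphate and secretes organic anions and cations through the SLC22 and SLCO carriers, and it carries cytochrome P450, glucuronosyltransferase and aldo-keto reductase enzymes that change steroids, lipids and drugs. Many of these carriers and enzymes in rodent kidney depend on sex hormones and on age.

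Gene-assigned reads per library numbered 5778679 to 16820529 in NZB/W-F1 kidneys and 5456869 to 11423419 in C57BL/6 kidneys, and values are given as CPM, the deposited unit of reads scaled to library size. A level of 3 reads corresponded to at most 0.379 CPM in an NZB/W-F1 library and at most 0.402 CPM in a C57BL/6 library. Xist, the RNA of the inactive X chromosome, was at 444, 335 and 406 CPM in the NZB/W-F1 libraries. In the C57BL/6 libraries it was at 484, 524 and 472 CPM, and all 6 animals are labelled female. Fitted with the later kidneys and without NZB/W-F1 replicate 1, its 1-month strain difference had a standard error of 1.49 (log2). The 1-month values lie too close together for that error, so Xist varied widely among the kidneys of later ages. The later values are not printed here, so the sex of the later kidneys was not checked by them. The part of this in the comparisons between ages was not tested. That holds also for the carriers and enzymes that depend on sex hormones. NZB/W-F1 replicate 1 stood apart. In it, 39 genes at 5 CPM or more in that library exceeded every other 1-month kidney more than 10-fold. The same rule gave 2 genes in NZB/W-F1 replicate 2, 1 gene in replicate 3 and 0 in any C57BL/6 library. These 39 were led by Alb (albumin), Star and Hsd3b1 (adrenal steroid synthesis) and Apoa1 (a liver apolipoprotein). The 13 adrenal marker genes summed to 3308, 12.4 and 3.95 CPM in NZB/W-F1 replicates 1, 2 and 3, against 5.22, 15.5 and 9.66 CPM in C57BL/6. The 6 liver markers summed to 6422, 31.6 and 51.2 CPM in NZB/W-F1 and 108, 82.2 and 76.4 CPM in C57BL/6, and none of either list was at 0 in all 6 libraries. Results that rest on this library are given with and without it. Replicates of NZB/W-F1 also differed more among themselves, with a chi-square per gene of 37.6 to 83.1 between pairs, against 10.2 to 11.6 between C57BL/6 pairs. The labels give no dates or sequencing lots. The numbering of the sample records falls into separate runs, and in each tissue the 1-month NZB/W-F1 libraries are numbered with the 6-month libraries while the 1-month C57BL/6 libraries are numbered with the 3-month libraries. At 1 month, strain and record run therefore cannot be told apart, whereas each of the 3-month and 6-month strain comparisons lies within a single run.

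**Figure D1:**
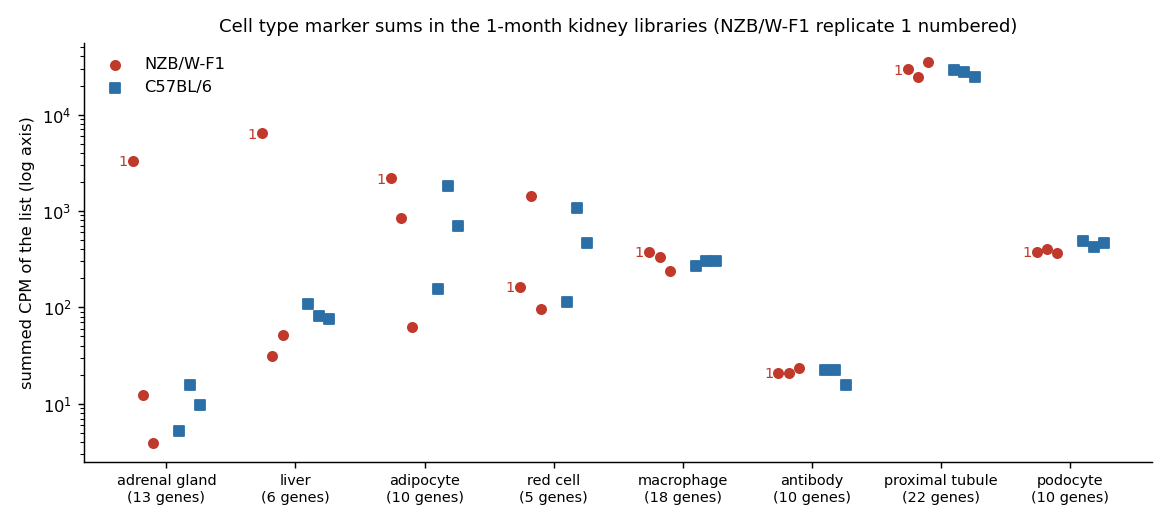
Summed CPM (log axis) of marker lists for cell types and tissues in each 1-month kidney library, NZB/W-F1 (circles) left of C57BL/6 (squares), with the number of genes summed in brackets. NZB/W-F1 replicate 1 lies far above the other 5 libraries in the adrenal sum (3308 CPM) and the liver sum (6422 CPM), while its macrophage sum (376 CPM) and antibody sum (20.8 CPM) lie near those of the others.

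At 1 month the kidneys of the 2 strains differed in 3310 of 14373 genes tested (23%) by limma at an adjusted p under 0.05. In NZB/W-F1 kidneys 1711 genes were higher (11.9%) and 1599 were lower (11.1%). The differences were mostly modest, with a median size of 0.74 on the log2 scale among the genes called, 1013 genes past 2-fold (607 higher and 406 lower) and 105 past 8-fold. Past 8-fold the balance was uneven, with 91 genes higher and 14 lower in NZB/W-F1. The median log2 difference over all genes tested was -0.0031. The 3 libraries of one strain lay wholly above or below the 3 of the other for 5527 genes (38.5%), among them 3217 of those called. Called genes were spread over the genome, from 16.5% of the genes tested on chromosome 18 to 27.7% on chromosome 13. The count moved with the libraries fitted. It was 2197 when the 6 libraries were fitted alone, 2090 without C57BL/6 replicate 2, 2187 without NZB/W-F1 replicate 2 and 3552 without NZB/W-F1 replicate 1, and 2764 genes (83.5% of the 3310) were called both with and without the last. The genome build named by the submitters' processing notes, mm10, is the sequence of C57BL/6, so NZB/W-F1 reads met the sequence of another strain, and the part of this in any lower value was not tested. In whole tissue, fewer cells of a type and less RNA per cell cannot be told apart.

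Among the genes furthest above C57BL/6 were carriers and enzymes of the tubule. Slc22a7, which encodes the organic anion carrier OAT2 (chromosome 17, 46432183 to 46438457, minus strand, GRCm38), had 317, 327 and 635 CPM in NZB/W-F1 kidneys, against 6.02, 8.95 and 6.72 CPM in C57BL/6 kidneys. All 3 NZB/W-F1 libraries were far above all 3 C57BL/6 libraries (log2 fold change 5.73 ± 0.25 SE, limma adjusted p = 1.3e-10). Slc22a26, a related carrier gene on chromosome 19, had 17.3, 4.36 and 41.3 CPM in NZB/W-F1, against 0, 0 and 0.064 CPM in C57BL/6, which is 1121 reads against 1 read (861-fold, 95% counting interval 154 to 34025). Mfsd2a, a transporter of lysophospholipids that carry docosahexaenoic acid, had 34.0, 32.3 and 57.8 CPM in NZB/W-F1 and 0.803, 1.38 and 2.17 CPM in C57BL/6 (4.43 ± 0.29, limma adjusted p = 2.2e-08). Sec14l3, of the SEC14 lipid-binding family, had 13.3, 6.63 and 64.9 CPM in NZB/W-F1 and no read in any C57BL/6 library, at least 422-fold higher against a floor of 3 reads over the 3 C57BL/6 libraries together. Rnf24, a RING finger gene, had 104, 56.3 and 157 CPM in NZB/W-F1 and 2.94, 3.90 and 3.65 CPM in C57BL/6. C8a, which encodes a chain of the terminal complement component C8, had 36.4, 24.1 and 44.7 CPM in NZB/W-F1 and 0.937, 1.53 and 1.28 CPM in C57BL/6. Ly6f, of the Ly6 family of small membrane-anchored proteins, had 34.1, 27.5 and 59.8 CPM in NZB/W-F1 and 0.803, 0.612 and 0.384 CPM in C57BL/6. None of these 7 genes had overlapping values between the strains. Serpina1b, an alpha-1-antitrypsin gene abundant in liver, had 148, 13.8 and 3.86 CPM in NZB/W-F1 and 0.937, 0.230 and 0.384 CPM in C57BL/6. Its value in NZB/W-F1 replicate 1, the library with liver markers, was 16.7 times the mean of the other two, and its log2 fold change of 4.43 was 3.02 without that library.

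The aldo-keto reductase genes of the Akr1c family, which reduce steroids, prostaglandins and other carbonyls and lie side by side on chromosome 13, moved in both directions. Akr1c18, the 20-alpha-hydroxysteroid dehydrogenase that inactivates progesterone (chromosome 13, 4132615 to 4150654), had 1161, 159 and 221 CPM in NZB/W-F1 kidneys, against 1.47, 0.536 and 0.959 CPM in C57BL/6 kidneys (log2 fold change 7.91 ± 0.61, limma adjusted p = 1.4e-07). NZB/W-F1 replicate 1, the library with adrenal RNA markers, was 6.11 times the mean of the other two, and without it the log2 fold change was 7.03 (adjusted p = 9.8e-08). Akr1c14, a 3-alpha-hydroxysteroid dehydrogenase (4049011 to 4090688), had 107, 74.8 and 144 CPM in NZB/W-F1 and 3.21, 3.98 and 2.24 CPM in C57BL/6. Akr1c21, a 17-alpha-hydroxysteroid dehydrogenase further along the cluster (4574075 to 4586541), went the other way. It had 4.17, 1.63 and 4.09 CPM in NZB/W-F1, against 248, 294 and 297 CPM in C57BL/6 (-6.29 ± 0.28, limma adjusted p = 1.7e-10). Akr1c19 had 6.82, 4.71 and 5.77 CPM in NZB/W-F1 and 51.5, 60.97 and 59.99 CPM in C57BL/6 (-3.22 ± 0.22), and Akr1c12 was also lower (-2.82 ± 0.28). Akr1c12 shares 39.2% of its 31-base words with other genes, so its reads may be split with them. Of 15 aldo-keto reductase genes tested 3 were higher and 4 lower, with a median log2 fold change of 0.08, against 11.9% higher and 11.1% lower over all genes. Without NZB/W-F1 replicate 1 the median had the other sign, -0.41, with 2 higher and 4 lower.

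2 further genes were high in NZB/W-F1 kidneys at every age. Angptl7, which encodes a secreted angiopoietin-like protein (chromosome 4, 148495183 to 148500460, minus strand), had 152, 155 and 327 CPM in NZB/W-F1 kidneys, against 1.61, 0.689 and 0.895 CPM in C57BL/6 kidneys (7.03 ± 0.36, limma adjusted p = 9.4e-10). The log2 fold change was 7.38 at 3 months and 6.99 at 6 months. The gene sits within Mtor, transcribed from the other strand, and without stated strand counting reads of the pair cannot be told apart. Havcr1, which encodes KIM-1, a surface receptor that marks injured proximal tubule (chromosome 11, 46735080 to 46779578), had 83.3, 54.5 and 134 CPM in NZB/W-F1, against 0.134, 0.153 and 0.192 CPM in C57BL/6 (7.01 ± 0.47, limma adjusted p = 2.5e-08). All 3 hybrid libraries were far above the controls at this pre-nephritic age, and the log2 fold change stayed called at 3 months (4.67) and 6 months (4.97). Of 24 kidney injury genes tested, limma called only Havcr1 and Tnfrsf12a, the TWEAK receptor, both higher. This share was below the 11.9% of all genes called higher by limma. By edgeR 4 of the 24 were higher and 0 lower, where edgeR called 1813 of all 14373 genes higher. At an unadjusted p under 0.05 in limma there were 3. The list's median log2 fold change was 0.41, and 19 of the 24 values were positive. Tnfrsf12a had 19.1, 16.2 and 11.4 CPM in NZB/W-F1 and 5.35, 5.97 and 5.95 CPM in C57BL/6. Lcn2, the injury marker NGAL, had 3.92, 3.96 and 1.77 CPM in NZB/W-F1 and 1.87, 1.61 and 0.959 CPM in C57BL/6, a difference that did not pass (adjusted p = 0.29).

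**Figure D2:**
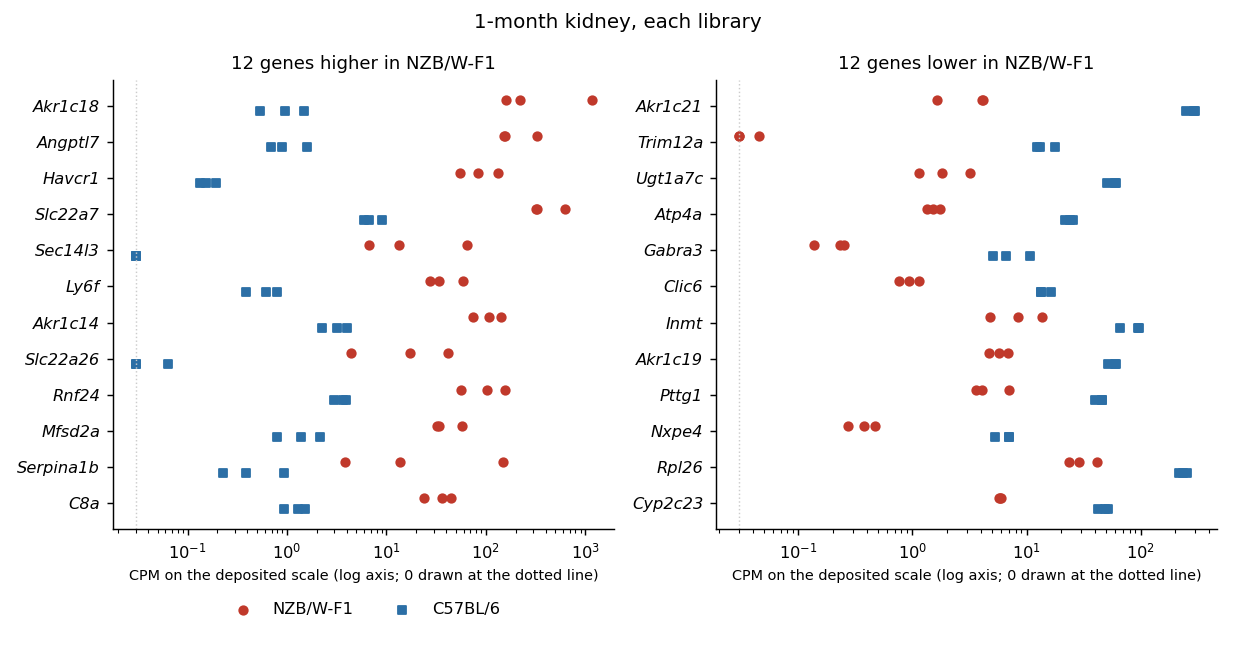
CPM (log horizontal axis) in each 1-month kidney library for 12 named genes higher and 12 lower in NZB/W-F1, 1 gene per row, with NZB/W-F1 (circles) drawn just above C57BL/6 (squares) and a value of 0 placed at the dotted line. The NZB/W-F1 points of Slc22a7 (317 to 635 CPM) lie far above its C57BL/6 points (6.02 to 8.95 CPM), and those of Akr1c21 (1.63 to 4.17 CPM) far below (248 to 297 CPM in C57BL/6).

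Genes far below C57BL/6 included detoxifying enzymes and several that stayed low at all ages. Cyp2c23, which makes epoxyeicosatrienoic acids from arachidonic acid in the kidney, had 5.69, 5.82 and 5.95 CPM in NZB/W-F1 kidneys, against 52.2, 42.2 and 49.1 CPM in C57BL/6 kidneys (-2.93 ± 0.17, limma adjusted p = 3.6e-09). The 3 libraries of each strain lay close together. Inmt, an N-methyltransferase of indoles and other amines, had 13.5, 8.38 and 4.77 CPM in NZB/W-F1 and 94.4, 96.8 and 65.7 CPM in C57BL/6. Atp4a, the catalytic subunit of the H+/K+ ATPase, had 1.52, 1.34 and 1.73 CPM in NZB/W-F1 and 25.6, 21.5 and 23.98 CPM in C57BL/6. Gabra3, a GABA-A receptor subunit, had 0.253, 0.233 and 0.136 CPM in NZB/W-F1 and 5.09, 6.58 and 10.7 CPM in C57BL/6. These 4 genes were called lower again at 3 and at 6 months. Ugt1a7c, a glucuronosyltransferase, had 1.14, 1.80 and 3.22 CPM in NZB/W-F1 and 59.3, 60.97 and 50.2 CPM in C57BL/6. The Ugt1a genes overlap and share their last exons, so the split of reads among them is uncertain. Clic6, of the chloride intracellular channel family, had 0.758, 0.931 and 1.14 CPM in NZB/W-F1 and 16.5, 13.3 and 13.4 CPM in C57BL/6, and Nxpe4 was 2.98 lower on the log2 scale. All 24 genes named by the size of their difference kept their call when each of the 6 libraries was left out in turn.

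Some strain differences were found in kidney, spleen and brain alike. Trim12a, of the antiviral Trim5 family (chromosome 7, 104299894 to 104315466), had 1 read in the 3 NZB/W-F1 kidneys together, against 543 reads in the 3 C57BL/6 kidneys (707-fold lower, 95% counting interval 126 to 27985), and its log2 fold change was -7.35 in spleen and -2.64 in brain. Ndufs5, a subunit of respiratory complex I, had 2.40, 3.61 and 2.82 CPM in NZB/W-F1 kidneys and 23.3, 25.8 and 27.2 CPM in C57BL/6 kidneys. Rpl26, a ribosomal protein gene, had 41.3, 28.6 and 23.4 CPM in NZB/W-F1 kidneys, against 253, 218 and 233 CPM in C57BL/6 kidneys. Rpl26 and Ndufs5 share 27.1% and 26.5% of their words with other genes, so reads could be lost to copies. Tceanc2 was also lower in all 3 tissues, by 2.90 on the log2 scale in kidney. Pttg1, the securin that holds sister chromatids together, was lower in kidney (-3.10 ± 0.20) and in brain (-3.54) and higher in spleen (1.07, adjusted p = 0.013). In 1-month spleen 29.4% of the genes tested were called (13.4% higher and 16% lower) and in 1-month brain 6% (3.04% higher and 2.96% lower). Over the 11983 genes tested in all 3 tissues, 776 were called in one direction in kidney and spleen, 29.3% of the 2649 kidney calls and 22.6% of the 3431 spleen calls. Kidney and brain shared 293, which was 11.1% of the kidney calls and 42.3% of the 692 brain calls. All 3 tissues shared 205 genes (1.71%), 131 higher and 74 lower. Of these 205, 132 (64.4%) were also called in the same direction in the 3-month and 6-month kidneys. In the labels the 1-month C57BL/6 kidney, spleen and brain libraries carry the same animal names. Agreement between tissues is therefore not repetition in separate control animals.

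The strain difference was wider at 1 month than later in number of genes. At 3 months 2177 genes (15.1%) were called, 8.19% of all genes higher and 6.96% lower, and at 6 months 818 genes (5.69%), 3.46% higher and 2.23% lower. Of the genes called at 1 month 970 were called in the same direction at 3 months, 29.3% of the 1-month calls and 44.6% of the 3-month calls, and 490 at 6 months, 14.8% of the 1-month calls and 59.9% of the 6-month calls. In the opposite direction there were 26 genes at 3 months and 19 at 6 months. A set of 382 genes (2.66%), 238 higher and 144 lower, was called in one direction at 1, 3 and 6 months, while 2196 were called at 1 month and at neither later age. A count at one age and not at another is no test of a change, so the difference between ages was tested itself. The strain difference at 1 month differed from that at 3 months for 209 genes (1.45%), of which 134 (0.932%) were more positive and 75 (0.522%) more negative at 1 month, and from that at 6 months for 529 genes (3.68%), of which 301 (2.09%) were more positive and 228 (1.59%) more negative. Both counts depended on single libraries. The first was 2100 without 3-month C57BL/6 replicate 3, 897 without 1-month NZB/W-F1 replicate 3, 453 without 3-month NZB/W-F1 replicate 1 and 73 without 3-month NZB/W-F1 replicate 3, and leaving out any other C57BL/6 library of the 2 ages, 1-month NZB/W-F1 replicate 2 or 3-month NZB/W-F1 replicate 2 left 83 to 136. The second was 1261 without 1-month NZB/W-F1 replicate 1 and 180 without 6-month C57BL/6 replicate 2, and 264 to 317 without any 1-month C57BL/6 replicate, 1-month NZB/W-F1 replicate 3, 6-month C57BL/6 replicate 3, or 6-month NZB/W-F1 replicate 1 or 3.

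Among genes called at 1 month and in both tests between ages, the 1-month C57BL/6 kidneys were the ones that stood apart. There were 111 such genes, 88 higher and 23 lower in 1-month NZB/W-F1 kidneys. For 79 of the 88, the 3 C57BL/6 kidneys of 1 month were below all 15 other kidneys of either strain and any age, and for 7 of the 88 the NZB/W-F1 kidneys of 1 month were above all 15 others. For 15 of the 23, the C57BL/6 kidneys were above all 15 others, and for 3 the NZB/W-F1 kidneys were below all others. Over all genes tested, the 1-month C57BL/6 kidneys were below all others for 803 genes (5.59%) and above for 905 (6.3%), while the 1-month NZB/W-F1 kidneys were below for 56 (0.39%) and above for 69 (0.48%). Without NZB/W-F1 replicate 1 the C57BL/6 counts were 889 and 998 and the NZB/W-F1 counts 211 and 206. These counts are not like for like, because a group with fewer libraries lies outside all others more easily. The NZB/W-F1 replicates also differed more among themselves, as given above, and a group with more spread meets this rule less easily. The part of that spread in the counts was not tested.

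Slc22a7 shows the pattern. Its NZB/W-F1 level of 317 to 635 CPM at 1 month was followed by means of 645 ± 139 CPM at 3 months and 380.5 ± 54.1 CPM at 6 months (SD, n = 3 each). The C57BL/6 level, 6.02 to 8.95 CPM at 1 month, was 399 ± 101.1 CPM at 3 months and 400.0 ± 31.3 CPM at 6 months, and the strain difference at 1 month exceeded that at 6 months by 5.81 ± 0.35 on the log2 scale (limma adjusted p = 3e-07). The same held for Akr1c18, with later NZB/W-F1 means of 249 ± 109.7 and 289 ± 98.9 CPM and C57BL/6 means of 342 ± 53.4 and 199 ± 139 CPM (difference between ages 7.18 ± 0.86, limma adjusted p = 0.00028). For Sec14l3, Slc22a26 and Rnf24 the differences between ages were 6.49, 6.22 and 5.96, and in each the strain difference at 3 and 6 months did not pass the test. All 5 kept this call in each of 12 fits that left out 1 library. Cyp2a4, a steroid 15-alpha-hydroxylase whose sequence is 58.1% shared with other genes, had 37.0, 9.77 and 39.9 CPM in NZB/W-F1, against 0.402, 0.383 and 0.384 CPM in C57BL/6 at 1 month. At 6 months it had 288 ± 31.4 CPM in NZB/W-F1 and 259.8 ± 45.7 CPM in C57BL/6.

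**Figure D3:**
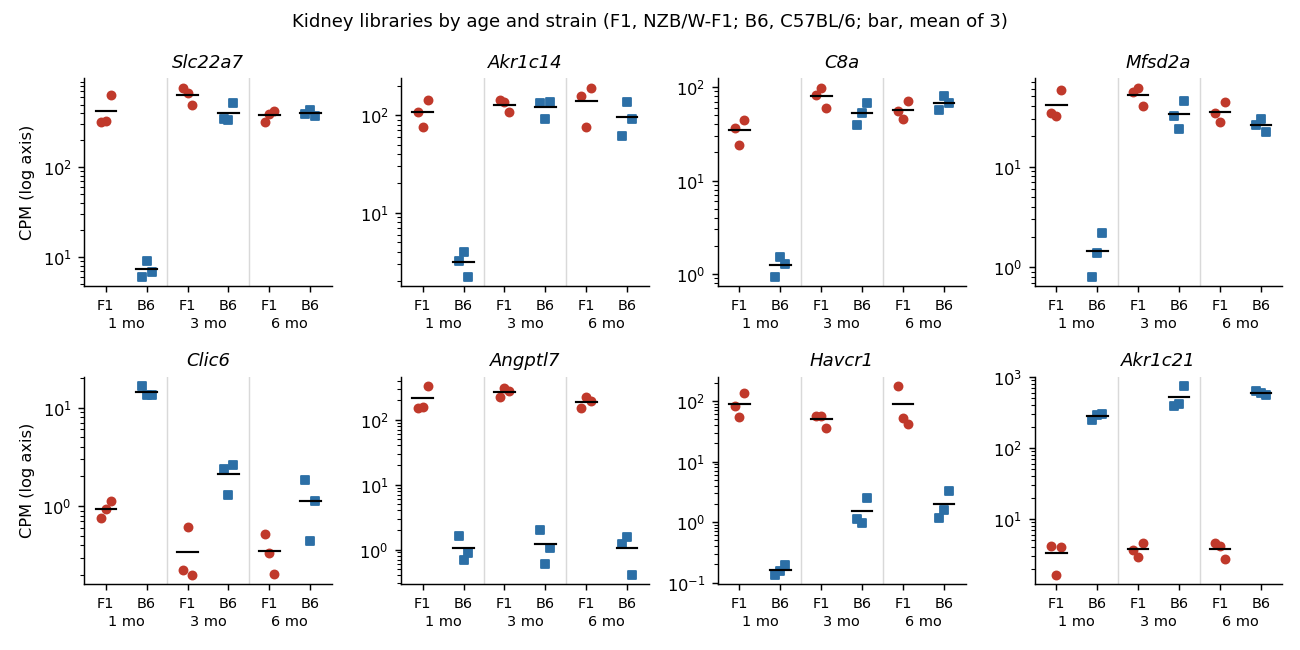
CPM (log axis) of 8 named genes in each kidney library at 1, 3 and 6 months, NZB/W-F1 (F1, circles) left of C57BL/6 (B6, squares) at each age, with a bar at the mean of 3 libraries. In Slc22a7 the 1-month C57BL/6 libraries (6.02 to 8.95 CPM) sit far below every other kidney, and in Clic6 the 1-month C57BL/6 libraries (13.3 to 16.5 CPM) sit far above.

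In the opposite sense, 5 genes had the largest changes among protein-coding genes with a 1-month mean of 5 CPM or more in a strain, no predicted-gene symbol and under 50% of their 31-base words in other genes, with a strain difference more negative at 1 month than at 6 months. Clic6 had later means of 0.346 ± 0.233 and 0.353 ± 0.159 CPM in NZB/W-F1 kidneys and of 2.09 ± 0.690 and 1.13 ± 0.702 CPM in C57BL/6 kidneys (SD, n = 3 each), and its strain difference was more negative at 1 month than at 6 months (-2.51 ± 0.44, limma adjusted p = 0.0054). Serpina6, the corticosteroid-binding globulin, had 345, 430.4 and 208 CPM in NZB/W-F1 and 353, 194 and 152 CPM in C57BL/6 at 1 month, overlapping ranges. At 6 months it had 21.0 ± 8.16 CPM in NZB/W-F1 and 0.558 ± 0.397 CPM in C57BL/6, so the strains differed at the later age (4.36) and not detectably at 1 month (0.52 ± 0.43, adjusted p = 0.40). Ugt1a10, which overlaps Ugt1a7c, was lower at 1 month (-1.77 ± 0.48) and higher at 6 months (2.28), a change between ages of -4.04 ± 0.68, and its 1-month call held in 2 of the 6 fits with a library left out. Cyp4b1, a P450 of fatty acid and xenobiotic oxidation, and Bbox1, the last enzyme of carnitine synthesis, had changes between ages of -2.83 and -2.92. These 2 calls were less stable and were lost in 5 and 9 of 12 fits with a library left out.

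Carriers of organic ions and drugs were more often higher than lower in NZB/W-F1. Of 30 tested 11 were higher and 4 lower, with a median log2 fold change of 0.37, against 11.9% higher and 11.1% lower and a median of -0.0031 over all genes. Of these 15 calls 11 held in all 6 fits that left out a library, 9 higher and 2 lower. Slc22a19, on chromosome 19 near Slc22a26, had 245, 213 and 458 CPM in NZB/W-F1 kidneys, against 32.4, 45.1 and 39.0 CPM in C57BL/6 kidneys (2.89 ± 0.28, limma adjusted p = 2.4e-06). Slco1a6, an organic anion carrier of rodent kidney, had 296, 301 and 446 CPM in NZB/W-F1 and 72.6, 79.2 and 61.7 CPM in C57BL/6 (2.26 ± 0.22). Slc22a2, the organic cation carrier OCT2, and Slc22a12, the urate carrier URAT1, were higher by 1.07 and 0.97. The 2 stable lower members were Abcc2, the efflux pump MRP2, with 73.8, 66.5 and 94.7 CPM in NZB/W-F1 and 276, 288 and 245 CPM in C57BL/6, and Slco4c1, with 6.06, 9.08 and 8.86 CPM in NZB/W-F1 and 21.8, 29.2 and 23.3 CPM in C57BL/6. For 9 of the 30 carriers the strain difference was more positive at 1 month than at 6 months by the test between ages. This held for 2.09% of all genes.

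Among enzymes of drug and lipid metabolism, cytochrome P450 genes and the glucuronosyl- and sulfotransferases were more often lower than higher in the hybrid. Over all genes 11.9% were higher and 11.1% lower. Of the 18 tested cytochrome P450 genes of the list 10 were lower and 1, Cyp2a4, was higher (median -0.77), and 8 of the 11 calls held in all 6 fits. Cyp51, also a P450, was counted with the cholesterol genes below and was called higher. Cyp4a14, a fatty acid omega-hydroxylase, had 198, 189 and 245 CPM in NZB/W-F1 kidneys, against 1157, 704 and 545 CPM in C57BL/6 kidneys (-1.86 ± 0.31, limma adjusted p = 0.00062). Cyp2d12 had 2.27, 3.20 and 2.59 CPM in NZB/W-F1 and 23.3, 18.8 and 18.7 CPM in C57BL/6. Cyp27b1, which makes the active form of vitamin D, had 3.16, 1.92 and 3.00 CPM in NZB/W-F1 and 14.3, 9.03 and 6.65 CPM in C57BL/6. Among 12 glucuronosyl- and sulfotransferases 5 were lower and 0 higher by limma and by edgeR (median -0.96), with 5 at an unadjusted p under 0.05. They included Sult1d1, a sulfotransferase of catecholamines, with 329.8, 324 and 462 CPM in NZB/W-F1 and 1073, 910.5 and 1041 CPM in C57BL/6. The glutathione transferases divided, 5 of 19 higher and 6 lower. Gstm1 was higher (596, 712 and 735 CPM in NZB/W-F1 and 374, 344 and 307 CPM in C57BL/6), and Gsta4, which clears the lipid peroxidation product 4-hydroxynonenal, was lower (40.3, 57.5 and 35.0 CPM in NZB/W-F1 and 149, 132 and 132 CPM in C57BL/6). Gsta2 was lower by 2.70 on the log2 scale, in sequence that is 61.3% shared with other genes.

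Among steroid enzymes, carriers and receptors, 2 of 15 were higher and 3 lower, where 11.9% of all genes were higher and 11.1% lower. Hsd3b2, a 3-beta-hydroxysteroid dehydrogenase, had 271, 226 and 408 CPM in NZB/W-F1 kidneys, against 23.3, 22.1 and 39.8 CPM in C57BL/6 kidneys (3.39 ± 0.23, limma adjusted p = 3.6e-08). NZB/W-F1 replicate 1, with its adrenal markers, was not the highest library for Hsd3b2, and the gene was also called at 3 months (3.36) and 6 months (2.49). Its neighbour in the family Hsd3b3 went the other way, with 4.80, 1.75 and 3.18 CPM in NZB/W-F1 and 17.4, 13.8 and 15.6 CPM in C57BL/6. Ghr, the growth hormone receptor, had 517, 415 and 765 CPM in NZB/W-F1 and 177, 220.5 and 202 CPM in C57BL/6 (1.46 ± 0.26).

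Genes of protein folding in the endoplasmic reticulum were higher as a group. In this compartment secreted and membrane proteins are folded by chaperones and disulfide isomerases, and when unfolded protein builds up the sensors IRE1, PERK and ATF6 raise the genes of these helpers through the factors XBP1 and ATF6. Of 20 such genes tested, 13 were higher in NZB/W-F1 and 0 were lower, with a median log2 fold change of 0.94, where 11.9% of all genes were higher. 12 of the 13 kept their call in all 6 fits that left out a library, and the exception was Pdia6, lost in 3. edgeR on the recovered reads also called 13 higher and 0 lower, and without NZB/W-F1 replicate 1 there were 13 higher and 0 lower, with a median of 0.88. At an unadjusted p under 0.05, 15 of the 20 passed. Hspa5, the chaperone BiP and the usual readout of this response, had 882, 715 and 627 CPM in NZB/W-F1 kidneys, against 201, 221 and 287 CPM in C57BL/6 kidneys (1.65 ± 0.25, limma adjusted p = 0.00024). Every NZB/W-F1 library was above every C57BL/6 library. Sdf2l1, a partner of BiP, had 34.6, 30.1 and 22.03 CPM in NZB/W-F1 and 6.02, 4.59 and 5.95 CPM in C57BL/6 (2.27 ± 0.40). Manf, a secreted stress protein, had 127, 87.3 and 50.8 CPM in NZB/W-F1 and 19.4, 19.4 and 27.8 CPM in C57BL/6, and its log2 fold change of 1.90 was 1.59 without NZB/W-F1 replicate 1 (adjusted p = 0.015). Hyou1, a nucleotide exchange chaperone, had 126, 152 and 129.7 CPM in NZB/W-F1 and 36.1, 40.5 and 49.2 CPM in C57BL/6 (1.69 ± 0.20). Calr, the lectin chaperone calreticulin, had 906, 884 and 962 CPM in NZB/W-F1 and 349, 350.0 and 473 CPM in C57BL/6 (1.24 ± 0.20, limma adjusted p = 0.00034). Xbp1 itself was at 150.1, 152 and 131 CPM in NZB/W-F1 and 80.3, 71.8 and 80.7 CPM in C57BL/6 (0.89 ± 0.14). Herpud1, a member of the degradation machinery and also a target of the response, had 99.8, 127 and 140.1 CPM in NZB/W-F1 and 191, 194 and 164 CPM in C57BL/6, which did not pass (adjusted p = 0.13).

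**Figure D4:**
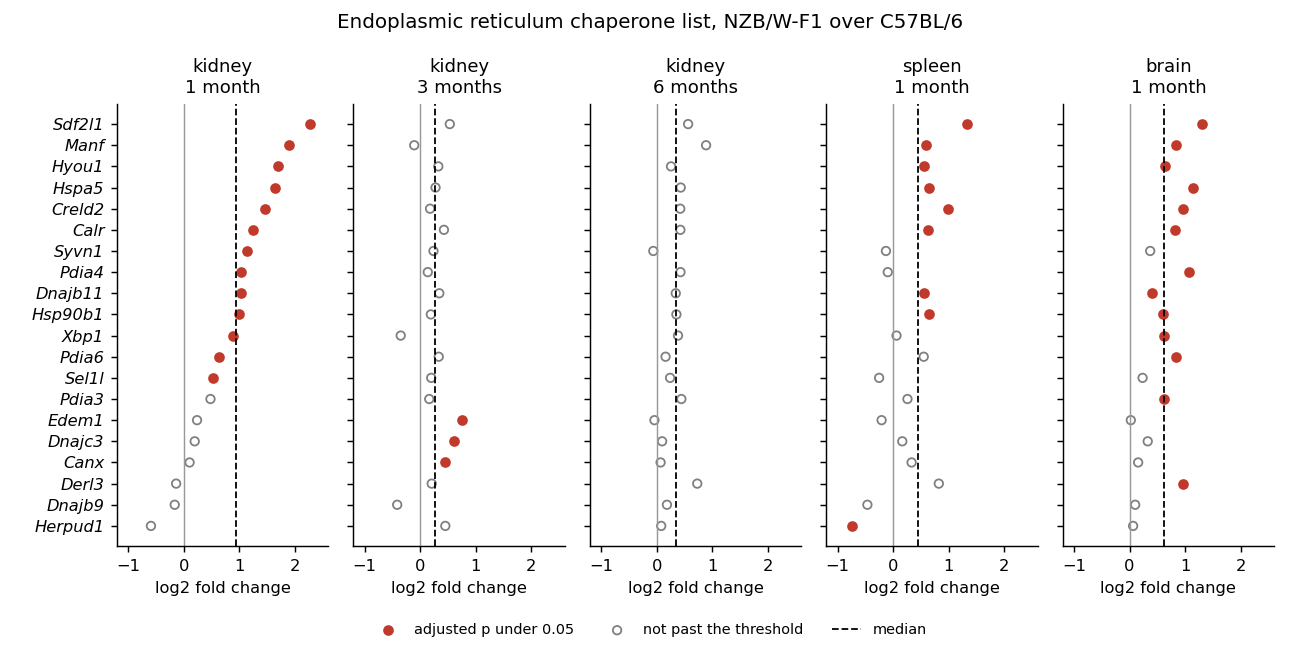
Log2 fold change, NZB/W-F1 over C57BL/6, for each of the 20 endoplasmic reticulum genes in kidney at 1, 3 and 6 months and in spleen and brain at 1 month, filled where the adjusted p was under 0.05, with the median as a dashed line. In kidney at 1 month the values run from -0.59 (Herpud1) to 2.27 (Sdf2l1) with a median of 0.94, and the medians are 0.26 and 0.35 in kidney at 3 and 6 months, 0.44 in spleen and 0.62 in brain.

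The same list was less separated at later ages. At 3 months 3 of the 20 were higher and 0 lower (median 0.26), where 8.19% of all genes were higher. At 6 months 0 passed in either direction by limma or by edgeR (median 0.35), where 3.46% of all genes were higher by limma. At an unadjusted p under 0.05 in limma, 7 were higher and 0 lower at 6 months. The test between ages called Xbp1, Hyou1, Pdia4 and Syvn1 more positive at 1 than at 3 months, where 0.932% of all genes were. It called Hyou1 and Syvn1 more positive at 1 than at 6 months, where 2.09% of all genes were. For the other members these differences did not pass. In 1-month brain 13 of 20 were higher and 0 lower (median 0.62), where 3.04% of all brain genes were higher. In 1-month spleen 8 of 20 were higher and 1 lower (median 0.44), where 13.4% of all spleen genes were higher. Hspa5 had a log2 fold change of 1.15 in brain and 0.64 in spleen. The 1-month libraries of all 3 tissues share the arrangement of record runs given above, and its part in the result was not tested. The 1-month C57BL/6 samples of the 3 tissues also came from the same animals by their labels.

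A known sequence element lies in many promoters of these genes. The ER stress response element is a CCAAT box that binds NF-Y, then 9 bases of any kind, then the CCACG bound by ATF6 and XBP1. It was searched on both strands from 250 bases before to 50 bases after each gene's start, in RefSeq promoters of GRCm38.p6. It was in 9 of the 18 endoplasmic reticulum genes with a promoter entry. Over all genes with an entry it was in 37 of 27025 (0.137%), and in 18 of 10942 genes of the kidney table (0.165%). The list was drawn up from known genes of this response, so its share describes the list and is no result of these kidneys. The promoters of Hspa5 (chr2:34771840-34772139, plus strand) and of Calr (chr8:84846882-84847181, minus strand) are printed because both genes were called and they show the element in its 2 orientations. Capitals mark the 2 fixed ends of the element, and in Calr it reads on the strand opposite to the gene, so that the printed letters are its reverse complement.
Hspa5 promoter: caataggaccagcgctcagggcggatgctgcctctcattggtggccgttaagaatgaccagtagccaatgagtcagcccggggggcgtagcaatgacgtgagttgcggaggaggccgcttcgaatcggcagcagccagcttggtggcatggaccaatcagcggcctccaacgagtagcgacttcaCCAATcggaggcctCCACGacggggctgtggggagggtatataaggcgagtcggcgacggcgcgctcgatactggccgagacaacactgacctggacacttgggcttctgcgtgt
Calr promoter: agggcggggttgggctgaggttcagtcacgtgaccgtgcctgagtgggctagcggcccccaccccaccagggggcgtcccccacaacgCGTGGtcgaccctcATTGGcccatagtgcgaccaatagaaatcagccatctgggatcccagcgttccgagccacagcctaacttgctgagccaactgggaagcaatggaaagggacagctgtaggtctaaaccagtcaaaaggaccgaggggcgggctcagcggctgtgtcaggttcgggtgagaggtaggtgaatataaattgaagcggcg
The 19-base elements of the other members, each read along the strand that holds it, show how the fixed ends recur around a variable middle.
Canx: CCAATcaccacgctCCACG
Creld2: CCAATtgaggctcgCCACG
Derl3: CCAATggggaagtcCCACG
Dnajc3: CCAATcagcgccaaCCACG
Hsp90b1, site 1: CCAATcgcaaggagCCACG
Hsp90b1, site 2: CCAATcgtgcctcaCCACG
Pdia6: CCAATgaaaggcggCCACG
Syvn1: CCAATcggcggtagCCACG

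Of the 9 genes with the element 6 were higher in NZB/W-F1 kidneys (median log2 fold change 0.99), of the 9 with a promoter entry and no match 5 were higher (median 0.53), and both genes without an entry, Hyou1 and Manf, were higher. A match is a description of the sequence, and no match says only that these letters are not in this window. In Hspa5 the element begins 65 bases before the start, and in Calr 162 bases before. It was in 0 of 16 promoters of cholesterol genes and 0 of 11 of cytosolic heat shock genes.

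The cytosolic heat shock genes, whose products fold proteins outside the endoplasmic reticulum under the factor HSF1, were 4 of 15 higher and 0 lower. Their median was 0.58. The share over all genes was 11.9% higher and 11.1% lower. By edgeR 5 were higher and 0 lower, and 8 had an unadjusted p under 0.05 in limma. Only Hsp90ab1 kept its call in all 6 fits, with 974, 1051 and 1246 CPM in NZB/W-F1 kidneys and 525, 568 and 584 CPM in C57BL/6 kidneys (0.96 ± 0.17, limma adjusted p = 0.0011). Cryab, a small heat shock protein, had 142, 475 and 208 CPM in NZB/W-F1 and 78.0, 53.7 and 86.9 CPM in C57BL/6 and kept its call in 1 of the 6 fits. NZB/W-F1 replicate 2 was the highest library for Cryab and for Hsph1. The heat shock element, searched as GAANNTTC on both strands in the same windows, was in 9 of 11 promoters of this list. It was in 9.04% of all genes with a promoter and in 0 of 18 of the endoplasmic reticulum list. The heat shock list too was made of known genes of its response, so its share describes the list.

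Genes of cholesterol synthesis, which SREBP2 raises when sterols run short, were higher in 7 of 23 cases and lower in 0 (median 0.46). Both limma and edgeR gave these counts, against 11.9% higher and 11.1% lower over all genes by limma. At an unadjusted p under 0.05 there were 10, and 5 of the 7 calls held in all 6 fits. Cyp51, the lanosterol demethylase, had 476, 359 and 615 CPM in NZB/W-F1 kidneys, against 84.2, 128 and 122 CPM in C57BL/6 kidneys (2.10 ± 0.22, limma adjusted p = 5.3e-06). The strain difference of Cyp51 was larger at 1 month than at 6 months, by 2.12. NZB/W-F1 replicate 1, the library with liver and adrenal markers, was the highest of the 6 libraries for 17 of the 23 genes, and without it 7 were higher, 1 was lower and the median was 0.22. In that fit Cyp51 stayed at 2.10, while Dhcr7 had 1.08, against 1.63 with the library. The sterol element, searched as TCACNCCAC on both strands in the same promoter windows, was in 1 of 16 promoters of this list. It was in 1.44% of all genes with a promoter and in 1 of 18 of the endoplasmic reticulum list.

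**Figure D5:**
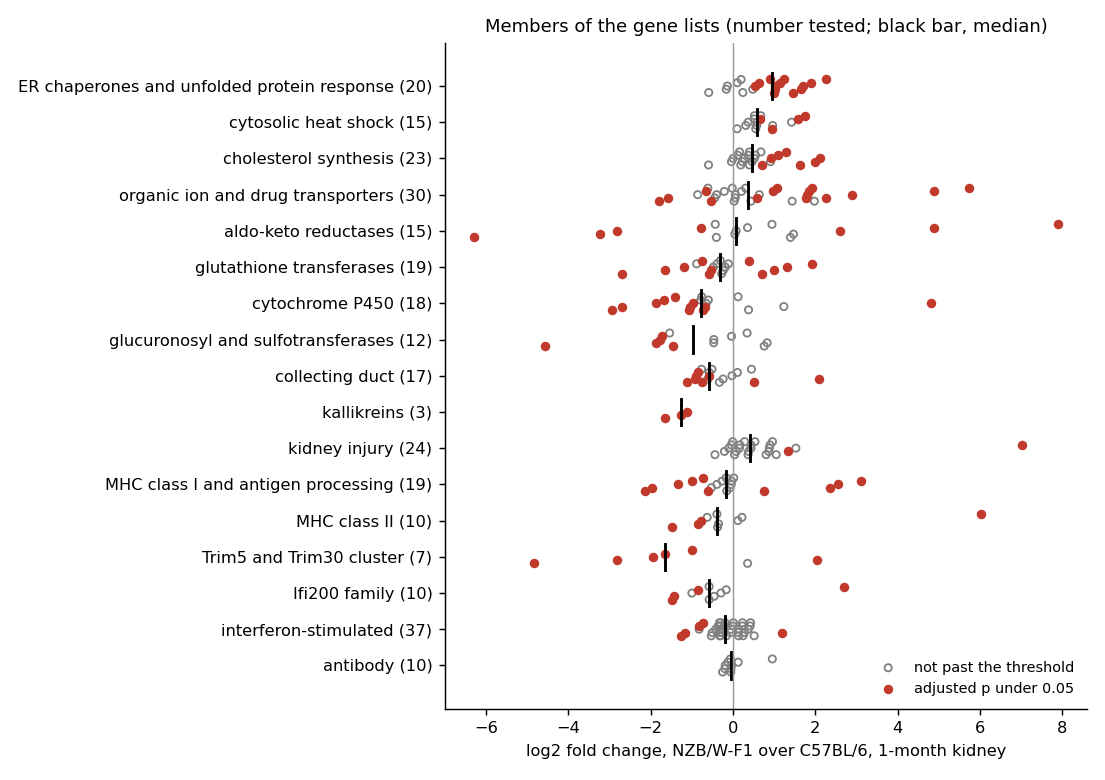
Log2 fold change, NZB/W-F1 over C57BL/6, of every tested member of each gene list in 1-month kidney, filled where the adjusted p was under 0.05, with the list's median as a black bar and the number tested in brackets. The median is 0.94 for the endoplasmic reticulum chaperones (13 of 20 called higher) and -0.77 for the cytochrome P450 genes (10 of 18 called lower).

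Genes of the major histocompatibility complex (MHC), which presents antigen and whose alleles differ between the strains, were higher at some loci and lower at others. H2-Ea-ps, the class II E alpha gene that C57BL/6 mice carry in an inactive form with a deletion (chromosome 17, 34341959 to 34344645), had 34.7, 40.8 and 30.7 CPM in NZB/W-F1 kidneys and 0, 0.153 and 0 CPM in C57BL/6 kidneys, which is 1651 reads against 2 (634-fold, 95% counting interval 175 to 5238). It was called at every age. Of 10 MHC class II genes this was the 1 higher, and 3 were lower, among them H2-DMb1 with 3.92, 3.90 and 2.04 CPM in NZB/W-F1 and 8.97, 10.02 and 10.4 CPM in C57BL/6. In the MHC class I list 4 of 19 were higher and 6 lower. For both MHC lists the share over all genes was 11.9% higher and 11.1% lower. H2-Q1 had 1.52, 2.68 and 2.18 CPM in NZB/W-F1 and no read in C57BL/6, at least 27.1-fold higher against 3 reads over the 3 libraries together, and H2-T10 had 9.22, 9.13 and 9.31 CPM in NZB/W-F1 and 1.47, 1.30 and 0.768 CPM in C57BL/6. H2-Q7 had 2.91, 3.78 and 2.77 CPM in NZB/W-F1 and 13.8, 17.2 and 15.9 CPM in C57BL/6. Class I genes share much sequence and vary between strains, so their reads may move between copies.

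2 clusters of innate immune genes were likewise divided. In the Trim5 and Trim30 cluster of chromosome 7, 5 of 7 genes were lower and 1 higher (median -1.65), and all 6 calls held in every fit with a library left out. Beside Trim12a, Trim30d had 0.379, 0.0582 and 0.182 CPM in NZB/W-F1 kidneys and 3.08, 5.58 and 4.80 CPM in C57BL/6 kidneys, and the neighbouring Trim34b was higher, with 1.77, 2.21 and 2.04 CPM in NZB/W-F1 and 0.134, 0.0765 and 0.128 CPM in C57BL/6. In the Ifi200 family of chromosome 1, whose members bind DNA or the adaptor ASC, 1 of 10 was higher and 3 lower. For both clusters the share over all genes was 11.9% higher and 11.1% lower. Ifi202b, a lupus candidate gene of the New Zealand Black strain, had 5.81, 2.73 and 1.18 CPM in NZB/W-F1 and no read in C57BL/6, at least 30.5-fold higher against 3 reads over the 3 libraries together, and its log2 fold change of 2.70 was 2.22 without NZB/W-F1 replicate 1. The low-affinity IgG receptor Fcgr2b, another lupus candidate, had 15.2, 13.1 and 17.6 CPM in NZB/W-F1 and 33.7, 29.5 and 34.9 CPM in C57BL/6 (-1.08 ± 0.18, limma adjusted p = 0.00053), and stayed lower at 3 and 6 months.

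Genes that mark immune cells or interferon showed little increase at this age. Of 37 interferon-stimulated genes 1 was higher and 4 were lower, with a median of -0.21, against 11.9% higher and 11.1% lower over all genes. Without NZB/W-F1 replicate 1 there were 1 higher and 6 lower, with a median of -0.36. Samd9l had 98.8, 87.4 and 78.8 CPM in NZB/W-F1 kidneys and 191, 206 and 245 CPM in C57BL/6 kidneys, and Rsad2, the antiviral enzyme viperin, had 37.9, 43.7 and 25.3 CPM in NZB/W-F1 and 84.7, 65.9 and 87.8 CPM in C57BL/6. The 1 higher gene was Gbp3, a guanylate-binding protein, with 39.3, 32.4 and 57.3 CPM in NZB/W-F1 and 13.7, 18.7 and 23.4 CPM in C57BL/6. Antibody genes gave 0 calls of 10 by limma and by edgeR, with 1 at an unadjusted p under 0.05, and summed to 20.8, 20.7 and 23.6 CPM in NZB/W-F1 and 22.2, 22.6 and 15.6 CPM in C57BL/6. Genes of T and NK cells gave 0 calls of 10 by both tools and 0 at an unadjusted p under 0.05. Of 14 chemokine genes 4 were lower and 0 higher by either tool, with 5 at an unadjusted p under 0.05. Of 18 macrophage genes 1 was higher and 1 lower (median -0.18), and without NZB/W-F1 replicate 1 there were 1 higher and 3 lower (median -0.39). The higher one was Csf1r, the receptor of the macrophage growth factor CSF1, with 69.9, 73.5 and 92.3 CPM in NZB/W-F1 and 46.9, 45.9 and 44.1 CPM in C57BL/6.

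Markers of nephron segments were abundant in both strains. The counts called in each segment stand against 11.9% higher and 11.1% lower over all genes. The 22 proximal tubule markers summed to 29575, 24582 and 35292 CPM in NZB/W-F1 and 28797, 27483 and 24251 CPM in C57BL/6, and 1 was higher and 2 lower, or 1 higher and 1 lower without NZB/W-F1 replicate 1. One of the lower was Slc6a19, the neutral amino acid carrier B0AT1, with 73.8, 83.9 and 193 CPM in NZB/W-F1 kidneys and 709, 594 and 489 CPM in C57BL/6 kidneys (-2.47 ± 0.48, limma adjusted p = 0.0019). In the collecting duct 6 of 17 were lower and 2 higher (median -0.58). Lower members included genes of the intercalated cells, which secrete acid or base, such as the pendrin gene Slc26a4 (52.9, 47.4 and 62.4 CPM in NZB/W-F1 and 92.2, 104 and 112 CPM in C57BL/6), the exchanger Slc4a9 (39.7, 44.2 and 60.95 CPM in NZB/W-F1 and 132, 93.7 and 90.1 CPM in C57BL/6) and the proton pump subunit Atp6v0d2 (25.1, 21.2 and 26.2 CPM in NZB/W-F1 and 45.0, 43.1 and 48.2 CPM in C57BL/6). Other intercalated cell genes of the list did not follow. The anion channel Aqp6 was higher, with 40.7, 60.7 and 72.4 CPM in NZB/W-F1 and 41.4, 41.1 and 36.7 CPM in C57BL/6, overlapping ranges (0.50 ± 0.17, limma adjusted p = 0.046), and kept its call in 1 of the 6 fits with a library left out. The chloride and bicarbonate exchanger gene Slc4a1 had 45.5, 58.1 and 66.5 CPM in NZB/W-F1 and 61.98, 42.9 and 52.5 CPM in C57BL/6, which did not pass (adjusted p = 0.73). The water channel Aqp4 was also higher, with 97.0, 218 and 205 CPM in NZB/W-F1 and 47.1, 24.9 and 45.3 CPM in C57BL/6 (2.10 ± 0.43). Of 10 podocyte genes 2 were lower, and neither call held in all 6 fits or without NZB/W-F1 replicate 1. In the loop of Henle 0 of 7 were called by limma or edgeR, with 0 at an unadjusted p under 0.05.

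Genes of blood pressure and salt control differed as well. Ren1, which encodes renin, had 129, 148 and 83.9 CPM in NZB/W-F1 kidneys, against 47.9, 32.3 and 41.5 CPM in C57BL/6 kidneys (1.54 ± 0.38, limma adjusted p = 0.0093), and did not pass at 3 months (0.73) or 6 months (0.52). All 3 kallikrein genes tested were lower (median -1.26), where 11.1% of all genes were lower. Klk1, the tissue kallikrein that releases kinins in the distal nephron, had 767, 587 and 561 CPM in NZB/W-F1 and 1888, 1793 and 2275 CPM in C57BL/6 (-1.64 ± 0.25, limma adjusted p = 0.00025), in sequence 40.5% shared with other kallikreins and genes.

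Clock genes were 3 of 18 higher and 2 lower, near the 11.9% higher and 11.1% lower of all genes. Npas2 had 17.3, 14.3 and 23.3 CPM in NZB/W-F1 kidneys and 4.28, 4.05 and 3.84 CPM in C57BL/6 kidneys (2.02 ± 0.54), Nfil3 was higher by 1.91 and Cry1 by 1.54. Nr1d2, which encodes the repressor REV-ERB beta, had 34.7, 39.6 and 33.6 CPM in NZB/W-F1 and 83.3, 110.2 and 106 CPM in C57BL/6 (-1.45 ± 0.27). The hour of collection is not given in the labels. Cell cycle genes were 4 of 22 higher and 0 lower by limma and 4 higher and 1 lower by edgeR, with 6 at an unadjusted p under 0.05. None of the 4 limma calls held in all 6 fits, and without NZB/W-F1 replicate 1 there were 0 higher and 1 lower.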

How the data were processed

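Kidney RNA of 18 mice was sequenced. Per the labels' protocols, animals were perfused with PBS, RNA was isolated with TRIzol, and sequencing libraries came from the TruSeq RNA v2 kit. The strand setting of the counting is not given in the sources used here. The submitters' processing notes name STAR 2.6 (a read aligner), HTSeq (a read counter), edgeR and the build mm10. The values the authors deposited are a signal, CPM scaled by normalisation factors, and are printed here as CPM. The plan had assumed plain CPM. Whole read counts were recovered from the deposited signal (100% of kidney values came out whole to 0.01). The 3 rows of the counter that name no gene (20.8% to 24.5% of all counts in 1-month NZB/W-F1 kidneys and 25.0% to 26.3% in C57BL/6 kidneys) were left out.

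Strains were compared with limma 3.58.1 (R 4.3.3, mean-variance trend) on log2(CPM + 0.5), with 6 group means fitted to all 18 kidney libraries, for genes at 1 CPM or more in at least 3 libraries (14373 of 14453). Fold changes are on this scale, which understates those of low genes. P-values were adjusted by Benjamini-Hochberg over all genes tested, with a threshold of 0.05. The difference between ages is the strain difference at 1 month minus that at 3 or 6 months. Spleen and brain were fitted likewise. The script was tested on simulated counts with known changes and recovered most of the larger ones. No rate is given here for smaller changes. The simulation had no library that stood apart and no record runs. Alternatives were edgeR 4.0.16 (quasi-likelihood) on the recovered counts, median-of-ratios scaling with DESeq2 1.42.0, a pseudocount of 0.1, no filter, the compared libraries alone, a replicate block, and leaving out each library. Folds against a group without a read use a floor of 3 reads over the group's 3 libraries together, and intervals and floors cover counting error only. A list's calls are counted over its tested members. Shared words are the 31-base words of a gene found in other genes. Coordinates are of GRCm38, the build of mm10, from GENCODE vM21.

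The genes named first are the 12 largest differences in each direction among called protein-coding genes with a mean of 5 CPM or more in a strain, no overlap between strains, no predicted-gene symbol and under 50% shared words. Then come up to 4 genes of each list with the smallest p, the 5 largest changes of each sign between 1 and 6 months, and the 6 largest kidney differences called in all 3 tissues. Other list members were named with their values in view. The 48 gene lists were chosen with earlier results of these data known. The results of a few genes that these rules name are not reported here.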

Additional observations from a re-analysis of the deposited data

Results flagged for a closer look

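The strain difference itself changed with age for 209 genes between 1 and 3 months and for 529 genes between 1 and 6 months by limma's test of the difference between strain differences at an adjusted p under 0.05, and both counts moved with single libraries as given above. Among protein-coding genes with a 1-month mean of 5 CPM or more in a strain, no predicted-gene symbol and under 50% of their 31-base words in other genes, the 5 largest positive changes between 1 and 6 months (log2, strain difference at 1 month minus that at 6 months) were 7.18 for Akr1c18, 6.49 for Sec14l3, 6.22 for Slc22a26, 5.96 for Rnf24 and 5.81 for Slc22a7. The 5 largest negative changes by the same rule were -4.04 for Ugt1a10, -3.84 for Serpina6, -2.92 for Bbox1, -2.83 for Cyp4b1 and -2.51 for Clic6. The 1-month strain comparison crosses record runs and the 6-month one does not, and the part of this in these values was not tested. Nor was the part of the wide spread of Xist among the later kidneys.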

How the results depend on the processing

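The count of 3310 genes called at 1 month was 2197 with the compared libraries fitted alone and 2090 to 3552 when 1 library was left out. The count of 209 genes between 1 and 3 months was 93 with the compared libraries alone and 73 to 2100 with 1 library left out. The count of 529 between 1 and 6 months was 455 to 527 under settings that kept all compared libraries and 180 to 1261 with 1 library left out. Genes called at all 3 ages numbered 382, and 309 to 389 with 1 library left out. Genes called in all 3 tissues numbered 205, and 165 to 210 with 1 library left out. edgeR on the recovered reads called 3324 genes at 1 month, 1813 higher and 1511 lower, of which 3163 were among the 3310. Replicate numbers do not pair the samples: correlations of deviations between same-numbered 1-month kidneys were -0.37, -0.13 and -0.31, and a replicate block gave 3329, 254 and 515 calls in the 3 comparisons. Of 137 named genes called at 1 month, 97 kept their call under all 12 settings and none changed direction. Depth limits genes under 3 reads over the 3 libraries of both groups, for which no fold is given.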

Other observations

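Gene groups outside the comparisons above gave the following values in 1-month kidneys. Their counts stand against 11.9% higher and 11.1% lower over all genes. In the Nrf2 list, of antioxidant genes, 2 of 11 were higher and 2 lower, and Nqo1, a quinone reductase, had 18.8, 26.5 and 20.1 CPM in NZB/W-F1 kidneys, against 74.4, 54.2 and 43.5 CPM in C57BL/6 kidneys (log2 fold change -1.36 ± 0.21, limma adjusted p = 0.00035). Pvalb, parvalbumin of the early distal convoluted tubule, had 113, 96.1 and 85.0 CPM in NZB/W-F1 and 15.9, 25.6 and 18.2 CPM in C57BL/6, and was higher again at 3 months (2.41) and not by the test at 6 months (0.93). Of 26 fatty acid oxidation genes 1 was higher and 3 lower, and Ppara, which encodes the factor PPAR alpha, had 5.81, 5.70 and 20.4 CPM in NZB/W-F1 and 28.4, 39.2 and 22.96 CPM in C57BL/6. Of 23 nuclear genes of the respiratory chain 4 were higher and 0 lower by limma and by edgeR, with 5 at an unadjusted p under 0.05, and 1 of the 4 calls held in all 6 fits with a library left out. Without NZB/W-F1 replicate 1 there were 4 higher and 2 lower. The 8 tested genes of the mitochondrial genome all had negative values (median -0.44) with 0 calls by limma, 1 lower by edgeR and 2 at an unadjusted p under 0.05.

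Of 6 B cell genes 1 was higher and 2 lower, where 11.9% of all genes were higher and 11.1% lower. Without NZB/W-F1 replicate 1 there were 0 higher and 1 lower. The lower Cr2, complement receptor 2, had 1.01, 0.582 and 0.681 CPM in NZB/W-F1 and 2.41, 3.37 and 2.30 CPM in C57BL/6. Ms4a1, the B cell antigen CD20, was lower at 1 month (-1.14) and higher at 6 months (2.01) in NZB/W-F1, and its strain difference changed by -3.15 between these ages (limma adjusted p = 0.0046), while its 1-month call held in 1 of the 6 fits with a library left out. Hba-a2, an alpha globin gene with 92.6% of its words in other genes, had no read in any NZB/W-F1 kidney and 329 reads in the 3 C57BL/6 kidneys, while Hba-a1, its near-identical copy, had 46.6, 483 and 28.6 CPM in NZB/W-F1 and 22.9, 186 and 94.8 CPM in C57BL/6. Myh1, a muscle myosin gene, had 5.69, 7.10 and 6.99 CPM in NZB/W-F1 and no read in C57BL/6 at 1 month, and both strains had reads at 3 and 6 months.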
